A study of Mus musculus with 6 samples.

Results

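The nuclear RNA exosome and the adaptor proteins that bring RNA to it were followed through 10 genes, chosen by name as parts of this machinery, among the 55232 features of the deposited table: Exosc2, Exosc3, Exosc10, Dis3, Zcchc8, Rbm7, Zfc3h1, Pabpn1, Zc3h18 and Ncbp1. The RNA came from mouse pulmonary microvascular endothelial cells (MPVECs), labelled as a cell line and grown for 12 h in the lower chamber beside a second cell line. That second line was TCMK-1, derived from mouse kidney tubular epithelium. Its cells were untreated in the control group (n = 3). In the repletion group (n = 3, IR in the labels) they had been depleted of ATP and then allowed to regain it. Titles of the repletion samples end in OD and the replicate number. The endothelial cells themselves received no treatment in either group, so the comparison asks how they differ with the state of their neighbours.

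The exosome is a barrel of non-catalytic subunits that threads RNA to 3' to 5' nucleases, and in the nucleus it trims precursors of ribosomal and small nucleolar RNAs and removes short-lived transcripts of promoters and enhancers. It finds these RNAs through adaptors built around the helicase MTREX. The NEXT complex, with ZCCHC8 and the RNA-binding protein RBM7, serves short unadenylated RNAs, and the PAXT connection, with ZFC3H1 and the nuclear poly(A)-binding protein PABPN1, serves polyadenylated ones. Both are tied to the cap-binding complex, of which NCBP1 is the large subunit, and ZC3H18 is one of the proteins that make the link.

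All 10 genes passed the filter on low counts. Of these, 1 rose (Zcchc8) and 0 fell at an adjusted p under 0.05 by edgeR's quasi-likelihood method, while 20.5% of the 13804 tested features rose and 19.2% fell, 39.7% in all. No fall was found at an unadjusted p under 0.05, with DESeq2 or with limma-voom either. In the authors' deposited table, Zcchc8 was again the single one of the 10 past an adjusted p of 0.05, a mark passed by 21.5% of the 24680 features to which that table gives an adjusted p. For the other 9 genes, the 95% interval of the fold change lay within 1.5-fold in both directions. The median log2 fold change of the 10 was 0.12, against 0.0013 over everything tested, and the median size regardless of sign was 0.12 against 0.38. The 10 lay at percentiles 37.7 to 86.2 of mean level among the tested features. A comparison with features of like level was not made. In such bulk samples, fewer cells that express a gene and less of its RNA per cell cannot be told apart.

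**Figure D1:**
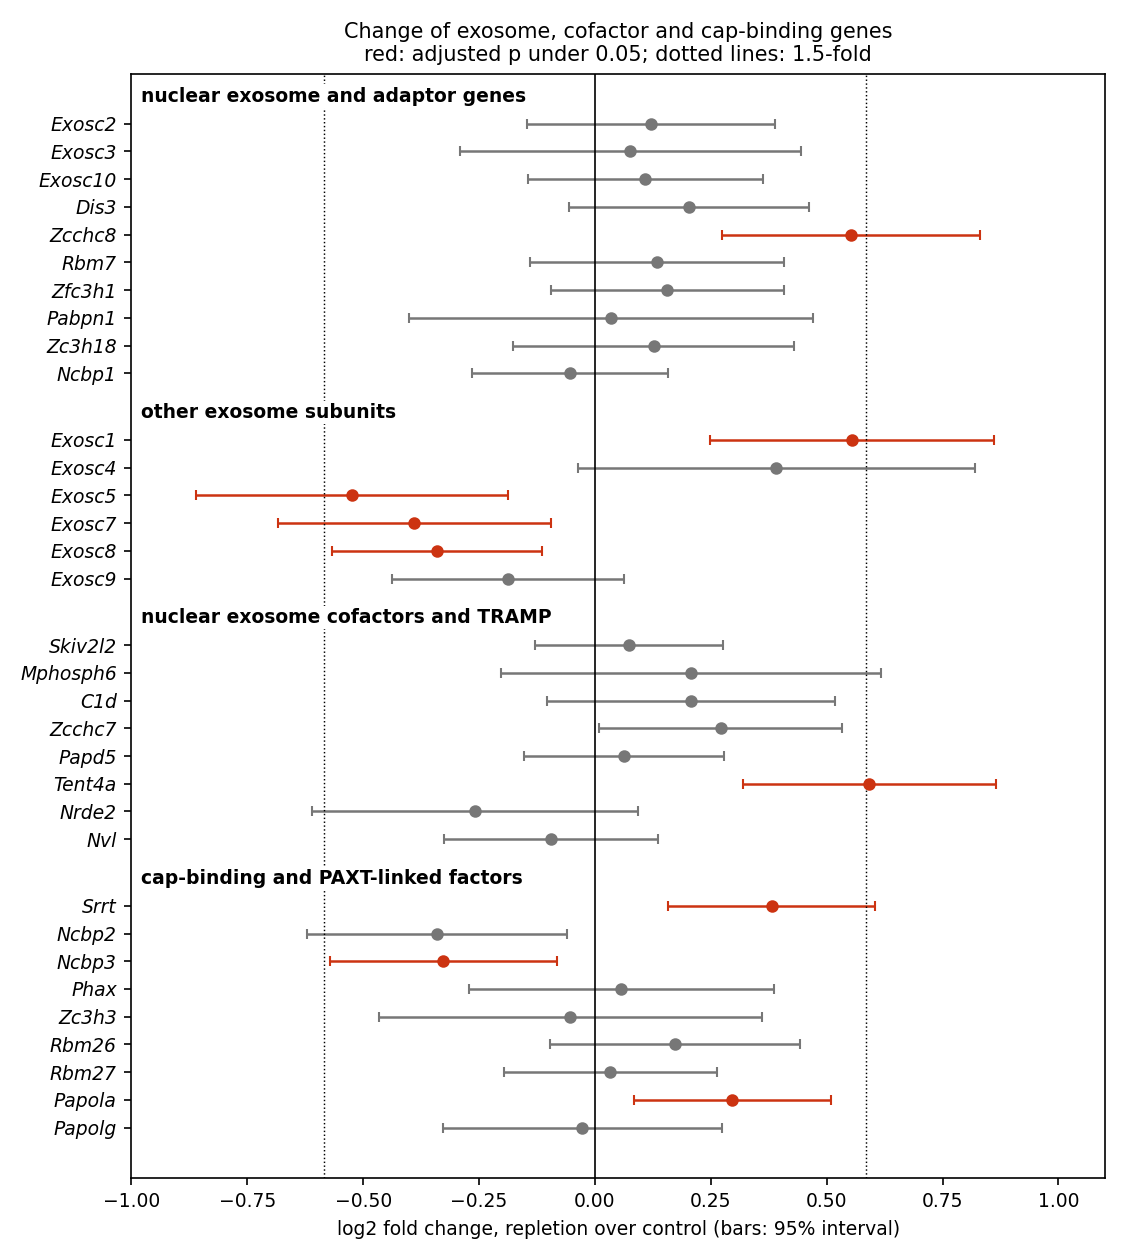
Log2 fold change of repletion over control (horizontal axis) with its 95% interval for the 10 nuclear exosome and adaptor genes and for further lists of the pathway; red marks an adjusted p under 0.05 and dotted lines mark 1.5-fold. Zcchc8 is the red point among the 10 at 0.55, and the intervals of the other 9 stay between the dotted lines.

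Library totals ran from 15582349 to 17817618 counts, over 17899 to 22130 features with a count. The labels do not say whether samples came from separate cultures, so the spread behind each p-value may be technical; chi-square values of 8.98 to 26.5 per feature between replicates exceed sampling noise, so none was merged. Across the tested features, level relative to each feature's mean over the 6 libraries fell with feature length in the 3 control libraries. It rose with length in the 3 repletion libraries. The slopes were -0.05 to -0.01 and 0.02 to 0.04 on the log2 scale per doubling, and compare the libraries only with each other. Summed levels of 10 endothelial markers were 2200 to 2444 CPM (counts scaled by library total) in control and 2305 to 2782 CPM in repletion, although Cldn5 had 0 counts in 5 of 6 libraries. Tubular epithelial markers (12 listed) summed to 14.1 to 17.6 and 16.1 to 20.7 CPM. Of these, Epcam, Krt18 and Slc34a1 were at 0 throughout, while Aqp1 had 100 to 171 counts a library and Pax2 65 to 173. Fibroblast markers (8 listed) summed to 20.3 to 22.5 and 17.1 to 25.0 CPM, with Lum at 0 and Pdgfra at 195 to 322 counts a library. Leukocyte markers (8 listed) summed to 378 to 417 CPM in control and 223 to 311 CPM in repletion. That list was mostly Cd68, a lysosomal protein gene, with Cd3e and Itgam at 0. Its part in the results, and that of the length trend except where stated, was not tested.

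Zcchc8 encodes the scaffold of the NEXT complex, which binds both RBM7 and MTREX. The gene (ENSMUSG00000029427) lies on chromosome 5, 123698294 to 123721100, on the minus strand of GRCm38, with 14 exons in its longest coding transcript, and no other annotated gene overlaps it. Its counts were 541, 704 and 773 in control and 1154, 887 and 973 in repletion. In CPM scaled with TMM factors, these were 34.4, 44.7 and 44.6 in control and 67.4, 55.8 and 58.3 in repletion. Each repletion library lay above all 3 controls, with control replicate 1 the lowest and repletion replicate 1 the highest. The group means were 41.2 ± 5.89 and 60.5 ± 6.07 CPM (SD, n = 3), a 1.47-fold rise with a 95% interval of 1.21 to 1.78. On the log2 scale the rise was 0.55 ± 0.13 (SE; edgeR adjusted p 0.00313). It was 0.54 with the trend on feature length removed (edgeR adjusted p 0.00357). Over the alternatives, the adjusted p of Zcchc8 ran from 4.91e-04 with DESeq2 to 0.0246 with edgeR without control replicate 1. The authors' deposited table gives Zcchc8 the same log2 value to 2 decimals, 0.55, at an adjusted p of 9.65e-04.

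Rbm7, the RNA-binding partner in NEXT (ENSMUSG00000042396, chromosome 9, 48488701 to 48495299, minus strand), did not pass. Its levels were 98.6, 78.4 and 85.6 CPM in control and 80.7, 113.7 and 93.8 CPM in repletion. The groups overlapped, and the highest library, repletion replicate 2, was the one in which Zcchc8 was lowest among the repletion libraries. The fitted change of Rbm7 was 0.13 ± 0.13 (SE, log2), interval -0.14 to 0.41, edgeR adjusted p 0.439. The log2 ratio of Zcchc8 to Rbm7, from CPM per kilobase within each library, was -1.61, -0.90 and -1.03 in control and -0.35, -1.11 and -0.77 in repletion. The means were -1.18 ± 0.38 and -0.75 ± 0.38 (SD, n = 3), which differ by 0.43 (two-sided exact permutation p 0.3, or 0.45 adjusted over the 3 partner ratios computed). Replicate 2 of the repletion group lay within the control range, and 3 against 3 cannot give a p below 0.1. A change of Zcchc8 that differs from that of Rbm7 was therefore not shown.

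The promoter windows of the NEXT pair are shown because 1 gene of the pair passed the test and the other did not, and that of Dis3 because it is the other gene whose groups did not overlap. They are RefSeq windows of GRCm38.p6, from 250 bases before to 50 after the start site, written along the gene. Capitals mark exact matches on either strand to the motifs searched: the GC box GGGCGG, the ETS core CCGGAAG, the CCAAT box CCAAT, the TATA box TATAAA, the CRE TGACGTCA, the E-box CACGTG, the AP-1 element TGANTCA and the palindromic NRF1 element. The Zcchc8 window is chr5:123720995-123721294, the Rbm7 window chr9:48495281-48495580 and the Dis3 window chr14:99099721-99100020, all on the minus strand.
Zcchc8: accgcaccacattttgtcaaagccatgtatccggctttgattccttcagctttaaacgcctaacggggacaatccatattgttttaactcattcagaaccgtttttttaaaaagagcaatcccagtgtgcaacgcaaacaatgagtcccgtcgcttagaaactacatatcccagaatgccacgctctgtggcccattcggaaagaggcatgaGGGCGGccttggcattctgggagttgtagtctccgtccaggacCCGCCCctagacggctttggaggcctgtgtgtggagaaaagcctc
Rbm7: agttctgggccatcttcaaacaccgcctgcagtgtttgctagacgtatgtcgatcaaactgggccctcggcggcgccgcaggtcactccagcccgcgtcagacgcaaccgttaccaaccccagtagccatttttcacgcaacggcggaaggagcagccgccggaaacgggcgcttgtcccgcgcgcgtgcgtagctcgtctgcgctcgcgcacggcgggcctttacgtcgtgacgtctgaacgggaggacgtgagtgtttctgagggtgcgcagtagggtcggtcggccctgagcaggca
Dis3: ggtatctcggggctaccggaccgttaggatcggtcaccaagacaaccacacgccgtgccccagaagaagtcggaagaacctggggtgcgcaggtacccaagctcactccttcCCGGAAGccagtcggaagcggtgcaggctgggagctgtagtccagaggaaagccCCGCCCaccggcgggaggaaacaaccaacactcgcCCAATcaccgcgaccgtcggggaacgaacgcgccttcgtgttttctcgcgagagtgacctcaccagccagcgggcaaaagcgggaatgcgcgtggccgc

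The Zcchc8 window held 2 GC boxes, 1 at positions -38 to -33 and 1 on the opposite strand at 6 to 11 from the start site, with 14 CpG dinucleotides. The Rbm7 window held no match to any motif searched and had 37 CpG dinucleotides. The Dis3 window held an ETS core at -138 to -132, a GC box on the opposite strand at -84 to -79 and a CCAAT box at -49 to -45. All 10 genes matched the RefSeq table, with 12 windows, which had 11 to 37 CpG dinucleotides against a median of 7 over 32851 windows. A GC box was in the windows of 6 of the 10 genes (Exosc3, Exosc10, Dis3, Zcchc8, Zc3h18 and Ncbp1). Counted by window, it was in 7 of the 12 and in 35.7% of all windows. The ETS core was also in the windows of 6 of the 10 (Exosc3, Exosc10, Dis3, Zfc3h1, Zc3h18 and Ncbp1). Counted by window, this core was in 7 of the 12 and in 8.86% of all windows. The CCAAT box was in those of Exosc2, Dis3 and Pabpn1 and in 37.4% of all windows. A match to the TATA box was in that of Ncbp1, downstream of the start site at 45 to 50, and in 13.6% of all windows. No window of the 10 genes held the NRF1 element, the CRE, the E-box or the AP-1 element, which were in 0.971%, 1.79%, 7.15% and 7.81% of all windows. These matches describe the letters in the windows and were not tested.

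**Figure D2:**
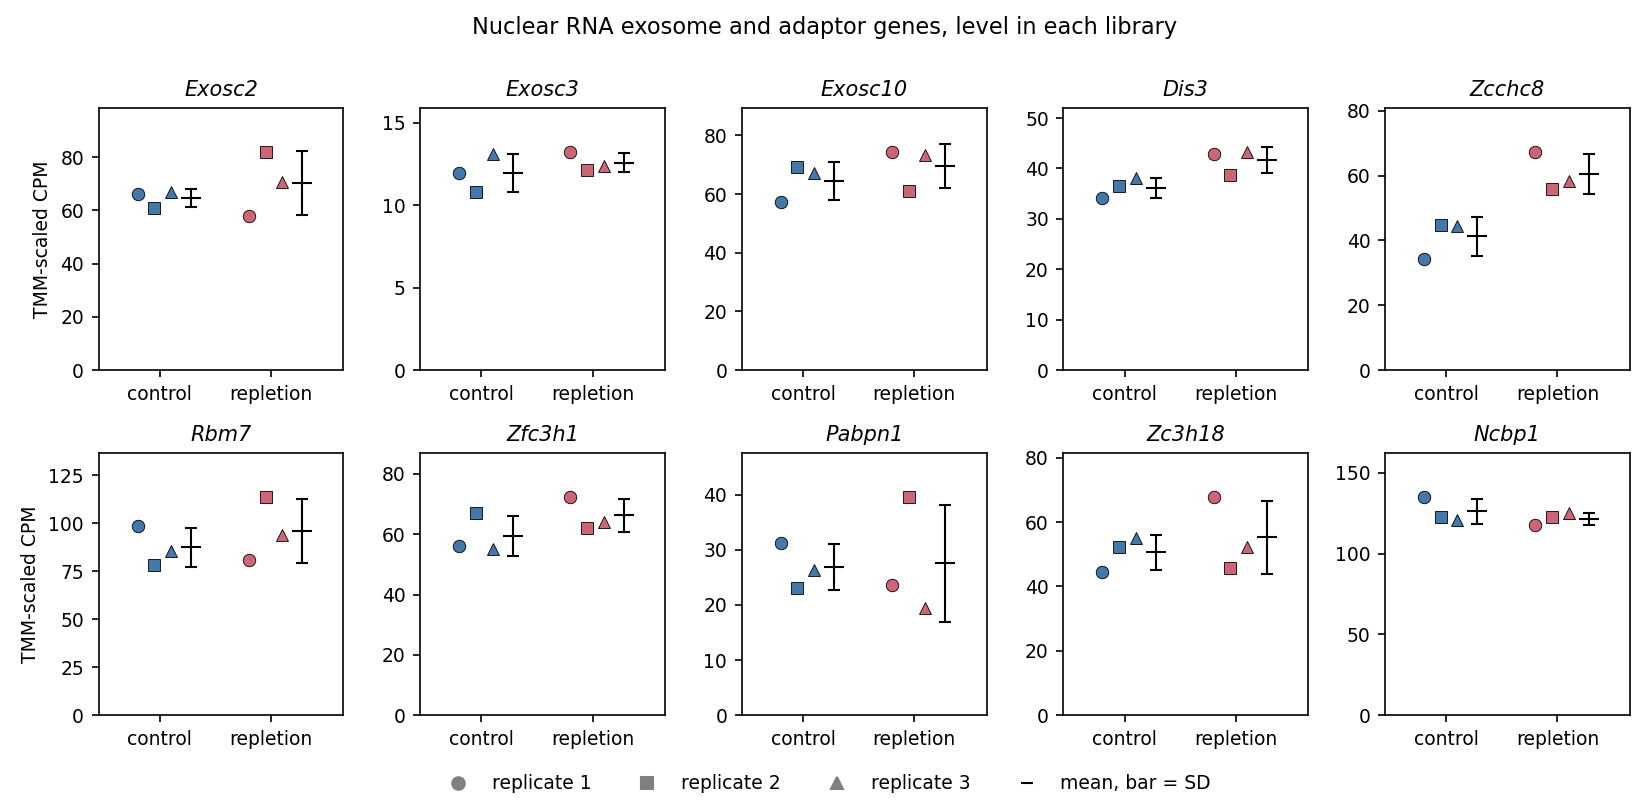
TMM-scaled CPM of each of the 10 genes (vertical axes, from 0) in the 3 control and 3 repletion libraries, with the mean and SD beside each group and a symbol per replicate number. Zcchc8 and Dis3 are the panels in which all repletion points lie above all control points; Pabpn1 runs from 19.4 to 39.6 CPM within the repletion group.

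The nucleases of the nuclear exosome are DIS3, which sits at the bottom of the barrel, and EXOSC10, which sits near its entrance and trims precursors. Dis3 (ENSMUSG00000033166, chromosome 14, 99075206 to 99099770, minus strand) stood at 34.03, 36.4 and 38.1 CPM in control and 43.0, 38.6 and 43.3 CPM in repletion. The groups did not overlap, but repletion replicate 2 was close to control replicate 3. Its fitted change was 0.20 ± 0.12 (SE, log2), interval -0.06 to 0.46, edgeR adjusted p 0.202. With the length trend removed, the log2 value of Dis3 was 0.0952. Dis3 is among the longer of these genes, with 7754 annotated exon bases. Groups that did not overlap were found for 2 of the 10 genes, Zcchc8 and Dis3, both higher in repletion. Over the tested features, 25.0% had all repletion libraries higher and 25.4% had them lower, 50.3% in all. Of the Dis3 exon bases, 4.19% also lie in exons of Pibf1, a protein-coding gene on the opposite strand.

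Exosc10 (ENSMUSG00000017264, chromosome 4, 148558429 to 148582401, plus strand) stood at 57.2, 69.3 and 67.2 CPM in control and 74.4, 61.1 and 73.4 CPM in repletion. The groups overlapped, with repletion replicate 2 inside the control range. The fitted log2 value was 0.11, interval -0.15 to 0.36, edgeR adjusted p 0.502. The log2 ratio of Dis3 to Exosc10 per kilobase was -1.94 ± 0.09 in control and -1.85 ± 0.07 in repletion (SD, n = 3; exact permutation p 0.3, or 0.45 adjusted over 3 ratios). Among the 3 partner ratios this one varied least between libraries, from -2.04 to -1.77.

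EXOSC2 and EXOSC3 are cap subunits of the barrel, on the side where RNA enters. Exosc2 (ENSMUSG00000039356, chromosome 2, 31670715 to 31681349, plus strand) stood at 66.0, 60.7 and 66.9 CPM in control and 58.0, 82.0 and 70.7 CPM in repletion. The repletion libraries lay on both sides of the control range. Its interval ran from -0.15 to 0.39 around a log2 value of 0.12 (edgeR adjusted p 0.477). Exosc3 (ENSMUSG00000028322, chromosome 4, 45316613 to 45342732, minus strand) was the least counted of the 10, with 188, 170 and 227 counts in control and 227, 193 and 207 in repletion. Its interval ran from -0.29 to 0.44 around a log2 value of 0.08 (edgeR adjusted p 0.762). Exosc2 shares 12.4% of its exon bases with the antisense gene Gm13427, which had at most 5 counts in a library, and holds a repeat found in transcripts of many other genes, so reads from that stretch are uncertain. Exosc3 shares 4.0% of its exon bases with Dcaf10 on the opposite strand.

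The PAXT genes did not pass. Zfc3h1, whose zinc finger protein joins MTREX to PABPN1 (ENSMUSG00000034163, chromosome 10, 115384959 to 115432772, plus strand), stood at 56.0, 67.2 and 55.1 CPM in control and 72.4, 62.2 and 64.1 CPM in repletion. Control replicate 2 lay among the repletion libraries. The fitted log2 value was 0.16, interval -0.10 to 0.41, edgeR adjusted p 0.316. With the length trend removed, the log2 value of Zfc3h1, which has 7848 exon bases, was 0.0477. The same removal also lowered the values of Dis3, Zc3h18 and, slightly, Zcchc8, but raised those of the remaining genes. Exosc2 went from 0.12 to 0.21, Exosc3 from 0.08 to 0.24 and Exosc10 from 0.11 to 0.16. Pabpn1 went from 0.03 to 0.12, Rbm7 from 0.13 to 0.14 and Ncbp1 from -0.05 to 0.0052. Pabpn1 (ENSMUSG00000022194, chromosome 14, 54892500 to 54898169, plus strand) stood at 31.2, 23.0 and 26.3 CPM in control and 23.6, 39.6 and 19.4 CPM in repletion. The repletion group held both its highest and its lowest library, with a coefficient of variation of 38.7% against 15.4% in control. Its interval, the widest of the 10, ran from -0.40 to 0.47 around a log2 value of 0.03 (edgeR adjusted p 0.912). Without repletion replicate 2 the value was -0.33, and the adjusted p ranged from 0.134 to 0.991 over the alternatives. The log2 ratio of Zfc3h1 to Pabpn1 was -0.22 ± 0.36 in control and -0.04 ± 0.59 in repletion (SD, n = 3; exact permutation p 0.8, also after adjustment). Gm20521, listed at 0 counts in every library, shares 651 of the 3035 Pabpn1 exon bases on the same strand, so the Pabpn1 level is uncertain.

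The cap-linked genes did not pass either. Ncbp1 (ENSMUSG00000028330, chromosome 4, 46138613 to 46172403, plus strand) was the most abundant of the 10, at 135.0, 122.5 and 120.8 CPM in control and 117.4, 122.4 and 124.8 CPM in repletion. It also had the lowest biological coefficient of variation of the 10, at 9.14%. Its fitted log2 value was the single negative one, at -0.05 with an interval of -0.27 to 0.16 (edgeR adjusted p 0.708), and turned to 0.0090 when scaled by library size only. Zc3h18 (ENSMUSG00000017478, chromosome 8, 122376609 to 122417360, plus strand) stood at 44.5, 52.3 and 55.1 CPM in control and 67.8, 45.6 and 52.4 CPM in repletion. Its highest library was repletion replicate 1, and the other repletion libraries lay within the control range. The interval ran from -0.18 to 0.43 around a log2 value of 0.13 (edgeR adjusted p 0.513). That value turned to -0.034 with the length trend removed, and Zc3h18 has the most exon bases of the 10, 9190. A processed pseudogene on chromosome X, Gm5939, matches 2922 bases of a Zc3h18 transcript, 61.0% of it, so its count is uncertain. Ncbp1 shares 4.7% of its exon bases with Tstd2 and Xpa, protein-coding genes on the opposite strand.

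The repletion libraries did not share 1 pattern over the 10 genes. Relative to the control mean on the log2 scale, repletion replicate 2 was at 0.56 for Pabpn1, 0.38 for Rbm7 and 0.34 for Exosc2, and repletion replicate 1 was at -0.19, -0.12 and -0.15 for the same genes. For Zc3h18, Exosc10 and Zfc3h1 the order was the other way, with replicate 1 at 0.42, 0.21 and 0.28 and replicate 2 at -0.15, -0.08 and 0.07. Zcchc8 was at 0.71, 0.44 and 0.50 in repletion replicates 1, 2 and 3. Relative to each feature's mean over the 6 libraries, repletion replicates 1 and 2 also differed in their slope with base composition. Over the tested features it was 0.04 and -0.10 on the log2 scale for each 10 percentage points of G and C. The longest transcripts of Rbm7, Exosc2 and Pabpn1 have 42.5%, 51.4% and 56.6% G and C, and those of Zfc3h1, Exosc10 and Zc3h18 have 45.6%, 53.2% and 53.9%. The part of base composition in this pattern was not tested.

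**Figure D3:**
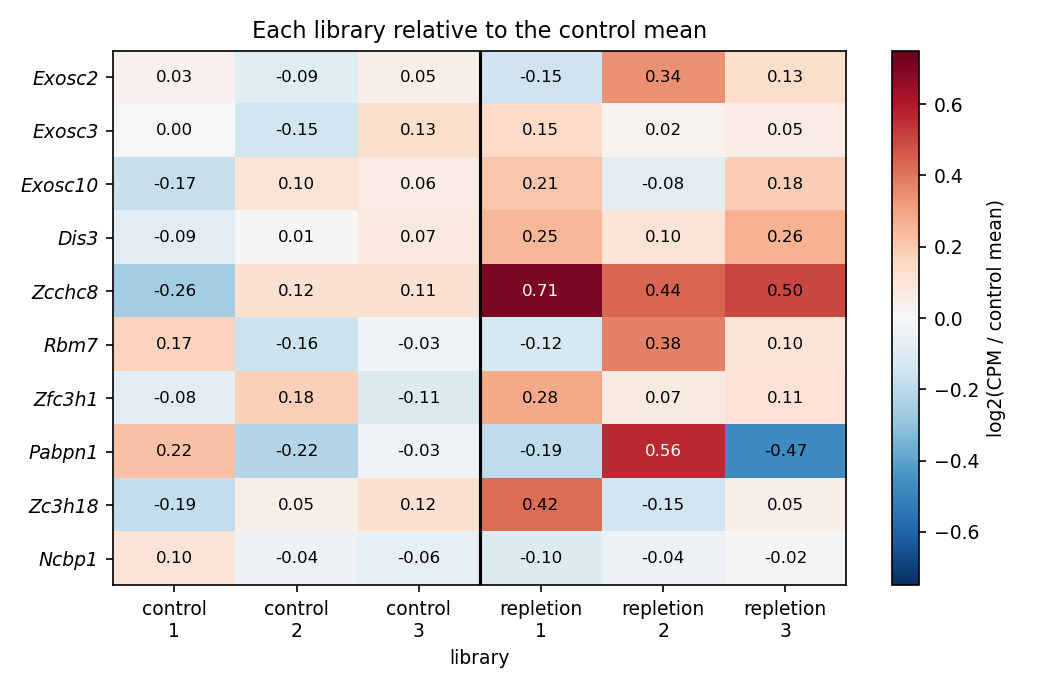
Log2 of the CPM of each library over the control mean (colour and printed value) for the 10 genes (rows) in the 6 libraries (columns; the line separates control from repletion). Zcchc8 is at 0.44 to 0.71 in the 3 repletion libraries, while Pabpn1 runs from -0.47 to 0.56 within that group.

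Levels were compared between genes only as CPM per kilobase of the feature length in the deposited table. For some genes this length exceeds the longest annotated transcript, as for Rbm7 (4941 against 2703 bases) and Zc3h18 (9190 against 4789). The order given here depends on that length, and an order by transcript length was not computed. In control, Ncbp1 was highest at 37.2 ± 2.29 CPM per kilobase, followed by Exosc2 at 22.4 ± 1.16, Exosc10 at 17.96 ± 1.80 and Rbm7 at 17.7 ± 2.08 (SD, n = 3). Next came Exosc3, Pabpn1, Zcchc8 and Zfc3h1 at mean levels of 9.02, 8.85, 7.85 and 7.57, and Zc3h18 and Dis3 were lowest at 5.51 and 4.66. Neighbours in this order whose libraries overlapped in level were Exosc10 with Rbm7, Exosc3 with Pabpn1, Pabpn1 with Zcchc8, Zcchc8 with Zfc3h1, and Zc3h18 with Dis3. In the repletion group Zcchc8 stood at 11.5 ± 1.16 CPM per kilobase (SD, n = 3), at rank 5 in place of rank 7. Its libraries lay above those of Exosc3, the next in order, and below those of Exosc10, but within the range of Pabpn1, which it passed in the order and whose repletion libraries ran from 6.39 to 13.05 CPM per kilobase. Rbm7 and Exosc10, at 19.4 each, exchanged places without separating, and the remaining genes kept their order. In that group the libraries of Exosc2 also overlapped those of Rbm7, and those of Exosc3, Pabpn1 and Zfc3h1 each overlapped the next of these. Skiv2l2, the gene of the MTREX helicase shared by these adaptors, stood at 28.7 CPM per kilobase in control and 30.2 in repletion.

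**Figure D4:**
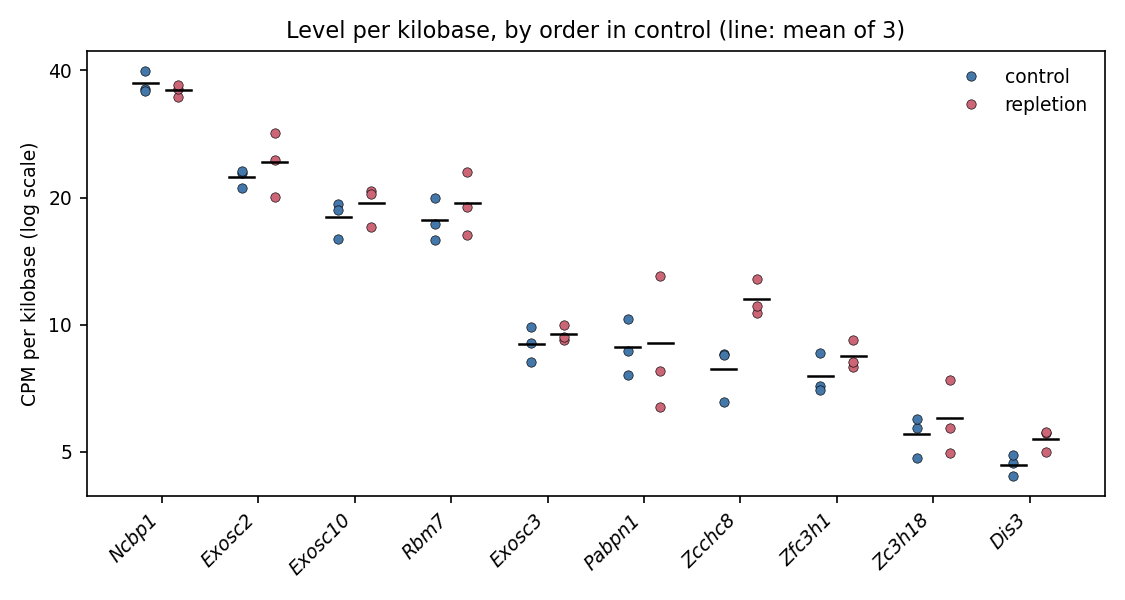
CPM per kilobase of the deposited feature length (log axis) of the 10 genes, ordered by their control mean. Points are libraries and lines are means of 3. The repletion points of Zcchc8, at 10.6 to 12.8, lie above its control points and above those of Exosc3 in both groups.

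Among the other subunits of the exosome barrel, changes went both ways. Of 7 such genes, 6 passed the filter, 1 rose and 3 fell (20.5% and 19.2% of all tested features did), and their median log2 fold change was -0.26. Exosc1, the remaining cap subunit, had 440, 461 and 470 counts in control and 838, 526 and 698 in repletion, where each library lay above the control range. It went from 28.1 ± 1.08 to 41.3 ± 7.91 CPM (SD, n = 3), a rise of 0.55 ± 0.15 (SE, log2; edgeR adjusted p 0.00602). The genes that fell, Exosc5, Exosc7 and Exosc8, encode subunits of the RNase PH-like ring, and their log2 values were -0.52, -0.39 and -0.34. Exosc5, the strongest fall of these, went from 22.1 ± 1.31 to 15.4 ± 2.40 CPM (SD, n = 3; edgeR adjusted p 0.0148). In all, 3 of the 5 tested ring genes fell and 0 rose, and 1 of the 3 cap genes (Exosc1) rose and 0 fell; a difference between ring and cap was not tested, nor was one from the 20.5% and 19.2% over all tested features. Exosc7 did not pass under 6 of 17 alternatives, among them library size only and leaving out control replicate 2 or 3 or repletion replicate 1 or 3. Its adjusted p ran from 0.0158 to 0.126 over its edgeR, DESeq2 and limma-voom alternatives. Exosc8 did not pass under 3 of 17, among them leaving out control replicate 3 or repletion replicate 3 (0.0116 to 0.0618 over its alternatives). Exosc4, at 0.39 and an edgeR adjusted p of 0.137, passed as higher when control replicate 3 (0.60) or repletion replicate 2 (0.55) was left out (0.0274 to 0.424 over its alternatives). Exosc6 was listed at 0 counts in every library, and 100% of its exon bases lie in exons of Aars on the same strand, so its level is uncertain.

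Cofactors of the nuclear exosome gave 1 rise and 0 falls among 8 tested genes (over all tested features, 20.5% and 19.2%), with a median log2 fold change of 0.14. The gene that rose was Tent4a (formerly Papd7), which encodes a non-canonical poly(A) polymerase. It had 369, 402 and 420 counts in control and 679, 568 and 584 in repletion, without overlap in CPM, a rise of 0.59 ± 0.13 (SE, log2; edgeR adjusted p 0.00167). Its paralog Papd5, the poly(A) polymerase of the TRAMP complex, was at 0.06 with an interval of -0.15 to 0.28. Skiv2l2 went from 183.7 ± 4.75 to 193.3 ± 7.41 CPM (SD, n = 3), a log2 value of 0.07 with an interval of -0.13 to 0.28. Nvl, which encodes an ATPase that binds MTREX, was at -0.09 and passed as lower once the length trend was removed (-0.40). Its adjusted p ran from 0.00369 to 0.860 over its edgeR, DESeq2 and limma-voom alternatives. C1d, a cofactor gene of EXOSC10, was at 0.21 and passed as higher without repletion replicate 1 (0.34; 0.0498 to 0.918).

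Cap-binding and PAXT-linked genes gave 2 rises and 1 fall among 9, with a median of 0.03, where 39.7% of all tested features passed in either direction. Srrt encodes ARS2, which bridges the cap-binding complex to NEXT and PAXT. It had 1358, 1600 and 1572 counts in control and 2106, 1794 and 2120 in repletion, without overlap in CPM, and rose by 0.38 ± 0.11 (SE, log2; edgeR adjusted p 0.0088). Srrt did not pass when control replicate 1 or 3 or repletion replicate 3 was left out (0.00245 to 0.0555 over its alternatives). Papola, a poly(A) polymerase gene, rose by 0.30 and did not pass under 10 of 17 alternatives, among them leaving out any 1 control library or repletion replicate 2 or 3 (0.00893 to 0.148). Ncbp3, which encodes a further cap-binding protein, fell by 0.33, or by 0.74 with the length trend removed. It did not pass under 5 of 17 alternatives, among them library size only and leaving out control replicate 1 or 3 or repletion replicate 3 (1.85e-04 to 0.150). Ncbp2, the small cap-binding subunit gene, was at -0.34 (edgeR adjusted p 0.0503), and passed as lower with limma-voom and without repletion replicate 3 (0.0385 to 0.246).

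In the cytoplasm the same barrel works with DIS3L and the SKI complex. The list made for these held 6 genes, among them Dis3l2, the gene of a further 3' to 5' exonuclease. Of the 6, 1 rose and 1 fell (39.7% of all tested features did either), with a median log2 fold change of -0.04. Dis3l, the cytoplasmic nuclease gene, had 917, 1048 and 1256 counts in control and 911, 539 and 702 in repletion. It went from 65.8 ± 7.07 to 43.0 ± 9.66 CPM (SD, n = 3), a fall without overlap, at -0.61 ± 0.15 (SE, log2; edgeR adjusted p 0.00349). Hbs1l, of which a splice form joins the SKI complex to the exosome, rose by 0.38 and did not pass without control replicate 2 (0.00197 to 0.0587 over its alternatives). Skiv2l, the SKI helicase gene, was at -0.27 and passed as lower when either control replicate 1 or repletion replicate 1 was left out (0.0355 to 0.248).

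The opposing 5' to 3' decay and decapping genes gave 3 rises and 1 fall among 9, with a median of 0.17, beside the 39.7% of all tested features that passed. Dcp1a, Cdkn2aipnl and Dcp1b rose by 0.52, 0.49 and 0.75, and the decapping exonuclease gene Dxo had a value of -0.75 (edgeR adjusted p 9.97e-04). Dcp1b had only 42, 47 and 56 counts in control and 80, 73 and 96 in repletion, and did not pass under 10 of 17 alternatives, among them leaving out any 1 control library or repletion replicate 1 or 3 (0.0302 to 0.162). The nuclease genes Xrn1 and Xrn2 were at 0.26 and 0.13, and neither passed. Xrn1 passed as higher without control replicate 2 and with library size only, and turned to -0.17 with the length trend removed (0.0389 to 0.318 over its alternatives).

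Before splicing, host transcripts of small nucleolar RNAs carry in their introns the precursors that the nuclear exosome trims. The values here are those of the host genes, and the precursors were not examined apart from them. Of 18 such genes, 16 were in the table under their listed names and 13 passed the filter, of which 4 rose and 5 fell (20.5% and 19.2% of all tested features did), with a median of -0.13. Snhg12 had 166, 151 and 206 counts in control and 93, 95 and 73 in repletion, and its value was -1.02 ± 0.22 (SE, log2; edgeR adjusted p 0.00133). Epb41l4aos, Snhg15, Snhg8 and Zfas1 fell by 0.88, 0.77, 0.60 and 0.53, and Snhg4, Dancr, Snhg1 and Snhg17 rose by 0.90, 0.58, 0.42 and 0.41. The abundant Gas5 stood at -0.13 with an edgeR adjusted p of 0.336. Snhg17 did not pass under 5 of 17 alternatives, among them leaving out any 1 control library or repletion replicate 1 (0.00759 to 0.0901 over its alternatives). Dancr did not under 7, among them no filter and leaving out any 1 control library or repletion replicate 2 or 3 (0.0165 to 0.155). Zfas1 did not pass without control replicate 3 or repletion replicate 3 (9.25e-04 to 0.0887), and Epb41l4aos did not under 3 of 17 alternatives, among them leaving out control replicate 3 (0.00529 to 0.0679). Snhg8 did not pass under 2 of 17, both with the length trend removed and the replicate numbers as a block (0.00138 to 0.0640). Snhg20, at 0.46, passed as higher without repletion replicate 1 (0.62; 0.0357 to 0.468).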

How the data were processed

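RNA-seq values of 6 libraries, 3 control and 3 repletion by their labels, came in 1 deposited table. Per the submitters' processing notes, HISAT2 2.0.5, featureCounts 1.5.0-p3, DESeq2 1.20.0 and GRCm38.p6 were used, with no roles stated; the sources used here give neither strand setting nor annotation release. The deposited counts are raw whole numbers per feature. The deposited FPKM equal count over length and a library constant (within 0.1% for 100% of values) and were not tested. The log2 fold changes, p-values, adjusted p-values and group means of normalized signal in the deposited table were made by the authors.

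Counts passing filterByExpr (13804 of 55232) were scaled with TMM (0.970 to 1.03) and tested two-sided with edgeR 4.0.16 (glmQLFit, glmQLFTest; R 4.3.3), with Benjamini-Hochberg adjustment over all tested features at 0.05. The common biological coefficient of variation came to 14.1%. Marker sums are CPM of the unscaled total. Partner ratios used exact permutation tests. Alternatives were RLE factors, library size only, DESeq2 1.42.0, limma-voom 3.58.1, no filter, at least 1 CPM in 3 samples, a replicate block, each library left out, and each library's trend with feature length removed, the last also with a replicate block. Removing a GC trend as well, without and with the block, was chosen after seeing the data. Ranges of the adjusted p over alternatives cover all of these, DESeq2 and limma-voom included. Overlaps, exons and GC come from GENCODE M21, which holds 99.9% of the Ensembl identifiers, and copies from BLAST 2.17.0. Named genes were each of the 10, each gene of the other lists past the threshold, and each list's largest change with its counts; further ones were named after their values were seen. The 10 genes and the lists were chosen with earlier results of these data known.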

Additional observations from a re-analysis of the deposited data

How the results depend on the processing

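Zcchc8 passed and the other 9 genes did not under each of the 17 alternatives; its log2 value ran from 0.42 (without control replicate 1) to 0.62 (library size only), and from 0.42 to 0.60 when 1 library was left out. Without a filter the median of all tested features moved to 0.13, against which Zcchc8 stood at 0.51. Values near 0 turned sign. Leaving out 1 library gave -0.011 (no repletion replicate 2) to 0.24 for Exosc2, -0.012 (no control replicate 2) to 0.14 for Exosc3, -0.011 (no repletion replicate 2) to 0.24 for Rbm7, and -0.051 (no repletion replicate 1) to 0.24 for Zc3h18. For Pabpn1 the range was -0.33 (no repletion replicate 2; -0.082 without control replicate 2) to 0.23 (no repletion replicate 3). Pabpn1 also turned with limma-voom (-0.027), no filter (-0.0049) and the replicate block (-0.021). Zc3h18 turned with the length trend removed (-0.034, or -0.049 with the replicate block). With the length and GC trend removed, Zc3h18 did not turn (0.014, or 0.0009 with the block). Ncbp1 turned with library size only (0.0090), the length trend removed (0.0052, or 0.0063 with the replicate block) and the length and GC trend removed (0.0020, or 0.0034 with the block). The ratio of Zfc3h1 to Pabpn1 differed by 0.18 between groups, or by -0.017 (no repletion replicate 3) to 0.52 when 1 library was left out, and those of Zcchc8 to Rbm7 and Dis3 to Exosc10 by 0.22 to 0.62 and 0.047 to 0.14. Over the 6 other lists, 12 genes rose and 11 fell, or 7 (no control replicate 1) to 12 and 6 (no control replicate 3) to 11 when 1 library was left out; 11 of the 23 calls held under all 17 alternatives. Over all features, 2830 rose and 2654 fell, or 2195 to 2765 and 1977 to 2745 when 1 library was left out, and 3214 and 2199 with library size only. Same-numbered samples did not deviate together (correlations of -0.076, -0.033 and 0.055), which shows no pairing by number but cannot exclude a weak one. The replicate block gave 2485 rises and 2353 falls over all features and 1 rise among the 10 genes (Zcchc8, 0.56, edgeR adjusted p 0.00914). Over the other lists it gave 9 rises and 9 falls, without Exosc7, Ncbp3, Papola, Dcp1b and Dancr. The cause of these changes was not tested. Low counts limit Exosc3, with 170 to 227 a library.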
